A study of Mus musculus with 14 samples.

Results

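Gene expression was compared in hearts that had lost Fam210a from their muscle cells and had failed, against hearts of control mice taken at the same time. The comparison used every library of the later time point by its labels, 3 knockout (cKO) and 3 control hearts, which are 6 of the 14 libraries in the study. All mice were male and of the C57BL/6 strain, and all carried the αMHC-MCM transgene (αMHC-MCM/+). It is a Cre recombinase under the promoter of the heart muscle gene Myh6 that works only after tamoxifen. The cKO mice carried floxed alleles of Fam210a on both chromosomes (Fam210a fl/fl, αMHC-MCM/+), and the control mice had the transgene alone (αMHC-MCM/+). Tamoxifen and the transgene were thus common to both groups by design. Reads of Esr1, which can come from the transgene, were nevertheless far lower in the cKO hearts, as given below. Hearts were collected about 10 weeks after tamoxifen, when the submitters describe cardiac function as severely reduced. The other 8 libraries, 4 cKO and 4 control hearts of the same genotypes taken about 5 weeks after tamoxifen with function still normal, were used only for the test of the difference between times; for 1 of them, early cKO replicate 4, the title says knockout while the genotype field says control. The age of the mice is not given in the sources used here. RNA came from heart tissue, which holds all cell types, while the deletion is limited to cells that use the Myh6 promoter.

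FAM210A is a protein of mitochondria that has been linked to protein synthesis inside them. Mitochondrial ribosomes make a small set of respiratory chain subunits encoded by mitochondrial DNA, and the remaining subunits are encoded in the nucleus and imported. When mitochondria are stressed, cells phosphorylate the initiation factor eIF2, which limits protein synthesis and favours translation of the transcription factor ATF4. ATF4 and its partners then switch on genes that make and import amino acids and charge tRNAs. The adult heart normally burns fatty acids, and a failing heart takes up many genes of the fetal heart and of wound repair.

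The sequence through which ATF4 pairs with C/EBP proteins has the core TGATGNAA, where N is any base, and it is shown first because many of the genes below are known to respond to ATF4. It was searched on both strands in the 250 bases before the transcription start of each gene in the RefSeq promoters (GRCm38.p6). It was found for 1056 of 27025 genes (3.91%), for 2.46% of the genes tested late that had a promoter, and for 5 of the 20 members of the list of ATF4 pathway transcription factors and regulators that had a promoter in that table (25.0%; 22 members in all). Among the stress, amino acid and tRNA synthetase genes described below, 8 had a match whose surrounding stretch overlapped no annotated exon. The lists searched were drawn up with earlier results of these data known, and Fgf21 was added by name, so the count supports nothing on its own. Of the 8, 7 (Atf3, Chac1, Pycr1, Slc7a11, Gars, Fgf21 and Jdp2) were called higher in cKO hearts and Slc7a7 was called lower. Matches in Nupr1, Asns, Aars and Tars (positive changes) and in Vldlr (log2 fold change -1.44) are not printed, since their stretches overlapped an exon. Of all genes with a promoter, a match was found for 2.89% of those called higher and 2.5% of those called lower. Each stretch is written 5′ to 3′ along the gene's own strand with the match in capitals, and a match is a description of letters, not evidence of binding.
Atf3 (chr1:191183410-191183469, minus strand): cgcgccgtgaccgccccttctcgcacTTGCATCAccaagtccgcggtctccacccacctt
Chac1 (chr2:119351023-119351082, plus strand): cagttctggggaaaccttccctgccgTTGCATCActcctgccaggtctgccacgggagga
Jdp2 (chr12:85599357-85599415, plus strand): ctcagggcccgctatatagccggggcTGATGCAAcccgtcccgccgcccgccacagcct
Pycr1 (chr11:120643818-120643877, minus strand): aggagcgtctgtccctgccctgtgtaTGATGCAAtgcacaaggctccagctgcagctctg
Slc7a11 (chr3:50443646-50443705, minus strand): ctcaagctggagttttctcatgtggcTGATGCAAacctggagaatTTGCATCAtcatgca
Slc7a7 (chr14:54418052-54418111, minus strand): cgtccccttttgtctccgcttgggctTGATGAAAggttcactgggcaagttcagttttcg
Gars (chr6:55037945-55038000, plus strand): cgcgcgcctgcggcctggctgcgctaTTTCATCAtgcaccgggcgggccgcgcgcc
Fgf21 (chr7:45615596-45615655, minus strand): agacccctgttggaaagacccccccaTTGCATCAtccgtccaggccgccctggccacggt
The stretch of Slc7a11, the cystine transporter, holds 2 matches on opposite strands. Slc7a7, the gene called lower, also had a second match outside exons, TGATGCAA within chr14:54417912-54417952, whose stretch is not printed. None of the 14 mitochondrial tRNA synthetase genes with a promoter in the table had a match. At the share of 2.46% among genes tested late, most sets of 14 genes would hold none, so this does not set them apart. The core of the antioxidant response element, TGACNNNGC, which NRF2 binds with small Maf proteins, was found for 11.5% of all genes with a promoter, for 14.1% of those tested late and in 7 of the 22 members of the oxidative stress list that had a promoter (31.8%; 27 members in all).

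The late libraries held 29989076 to 35750964 counts, and 14942 of 53735 gene symbols passed the filter on low counts. The first principal component held 87.2% of the variance and separated the groups. The cKO hearts were not alike, since the chi-square per gene was 20.9 between cKO replicates 1 and 2, but 102.5 and 97.04 between each of them and cKO replicate 3, against 14.42 to 35.55 between control hearts. Where leaving out 1 heart or another scaling moved a printed count of members called higher or lower by over 1.5 times and at least 2 genes, or turned a printed median, that value is given beside the list. Levels below are CPM, counts scaled to a common library size with TMM factors, and changes are log2 fold changes of cKO against control from edgeR's quasi-likelihood test, called at an adjusted p under 0.05. The labels do not state whether the libraries come from separate animals, so p-values here speak only of the spread among these libraries.

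In all, 9714 of the 14942 genes tested (65.0%) were called, 4757 of them higher (31.8%) and 4957 lower (33.2%) in cKO hearts. Of these calls, 2235 rises and 3045 falls were at least 1 on the log2 scale, and 333 rises and 451 falls at least 3. The groups did not overlap for 10432 genes (69.8%). The median log2 fold change over all genes was -0.02 and the median absolute change 0.71. These shares are the background for every count below, since a list whose shares up and down are near them does what all genes did. Upper quartile scaling moved the median of all genes to -0.19, with 3848 genes called higher and 5825 lower. Among genes named below that did not pass, Cs, Ogdh, Ifi27 and Actc1 had small positive changes that turned negative under it.

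The targeted gene was measured first. Fam210a (chr18:68260187-68300333, minus strand, GRCm38) stood at 65.1, 70.8 and 64.6 CPM in cKO replicates 1 to 3 and at 131, 120.1 and 134 CPM in control replicates 1 to 3. No cKO heart reached a control, and the log2 fold change was -0.94 (SE 0.11, adjusted p = 6.5e-05). Cells without Cre also contribute to these levels. Its exons overlap those of Ldlrad4 on the other strand (log2 fold change -0.91), so that reads from the exons they share cannot be told apart in an unstranded library. Rnmt, which starts 22 bases away on the plus strand, was higher by 1.06.

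Reads of Esr1 can come from the transgene, since MerCreMer carries hormone-binding domains of the mouse estrogen receptor, whose gene is Esr1. It stood at 4916, 3750.2 and 3770.2 CPM in control hearts and at 60.1, 8.9 and 14.6 CPM in cKO hearts (log2 fold change -7.22, SE 0.74, adjusted p = 3.64e-05). Every control was far above every cKO heart, and cKO replicate 1 was the highest of its group. Without that heart the change was -8.46. At about 5 weeks, Esr1 was still at 2694, 2199, 2064 and 2891 CPM in cKO hearts and 3603, 2986, 3954 and 3394 CPM in controls. Myh6 itself, whose promoter drives the transgene, did not pass the test, at 34779, 29537 and 30592 CPM in cKO and 27960, 26553 and 28839 CPM in control hearts (log2 fold change 0.19, adjusted p = 0.296). Reads of the transgene and of Esr1 cannot be told apart in these counts, and why they fell was not tested.

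**Figure D1:**
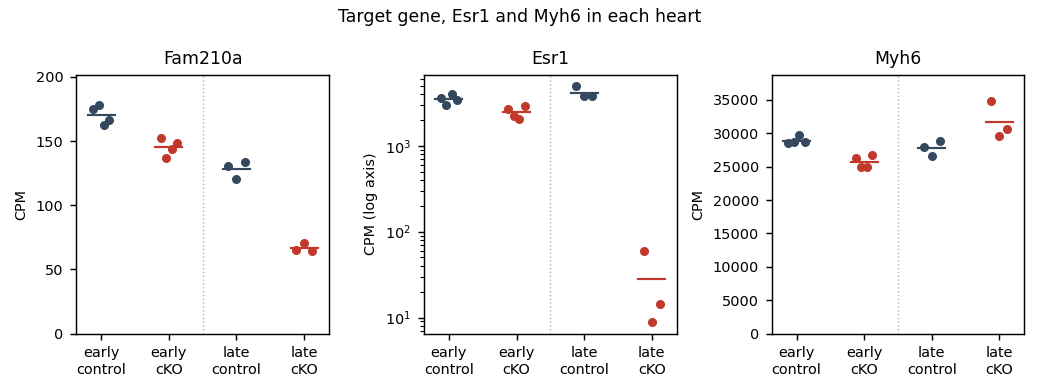
Level in CPM of Fam210a, Esr1 and Myh6 in each heart (points) with the group mean (line), at about 5 weeks (early) and about 10 weeks (late); the axis of Esr1 is logarithmic. Early and late hearts come from separate tables, so only groups of the same time are compared: late cKO hearts had lower Fam210a and Esr1 than every late control, while Myh6 was at 34779, 29537 and 30592 CPM in late cKO hearts.

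The largest rises joined amino acid enzymes with genes that are hardly read in a control heart. Asns, which makes asparagine, stood at 474, 418 and 559 CPM in cKO and 2.47, 2.89 and 2.01 CPM in control hearts (197-fold). Psat1 and Phgdh, enzymes of serine synthesis, stood at 387, 369 and 496 CPM against 2.38, 3.02 and 3.36 CPM and at 144, 125 and 175 CPM against 0.977, 1.1 and 1.05 CPM. Lcn2, an iron-binding secreted protein of inflamed tissue, went from 2.54, 2.29 and 1.23 CPM to 273, 287 and 285 CPM. In each of these 4 genes the lowest cKO heart was far above the highest control. The largest rises were chosen by size among genes without overlap, so this was set by the choice. Acox2, a peroxisomal oxidase of branched lipids, stood at 83.8, 109 and 116 CPM against 0.326, 0.126 and 0.21 CPM, and Cdsn, a protein of skin cell junctions, at 120.0, 135 and 144 CPM against 0.554, 0.409 and 0.45 CPM. Ostn, a peptide hormone of muscle and bone that binds the natriuretic peptide clearance receptor, stood at 64.1, 91.7 and 111 CPM against 0.228, 0.0943 and 0.06 CPM.

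Another 4 rises started from 1 to 3 counts over all 3 control hearts, so that only a ratio with a counting interval can be given. Vmn2r3, named as a vomeronasal receptor (chr3:64257215-64289709), had 7337 counts in cKO hearts and 1 in controls, a ratio of 7207 (95% exact counting interval 1293 to 284720). Adm2, a vasodilator peptide of the adrenomedullin family, had a ratio of 745 (95% exact counting interval 254 to 3613). Cyb5r2, a reductase whose exons overlap Ppfibp2, had a ratio of 887 (95% exact counting interval 303 to 4306), and Fam227b, whose exons overlap Galk2, of 1959.8 (95% exact counting interval 351 to 77445). These intervals cover counting error only. The other members of the 15 largest rises were Akr1b7, an aldo-keto reductase (30.6, 28.7 and 36.4 CPM against 0.0977, 0.0314 and 0.03 CPM), the receptor phosphatase Ptprt (28.5, 24.6 and 21.1 against 0, 0.126 and 0), the adaptor Sh2d6 (31, 29.7 and 34 against 0.13, 0.0943 and 0.03) and the cationic amino acid transporter Slc7a3 (42.5, 46.2 and 57.1 against 0.0326, 0.189 and 0.48). Leaving out 1 control heart moved the fitted change by over 1.5 times for Slc7a3 (7.64, and 8.71 without control replicate 3), Akr1b7 (9.15, and 9.86 without control replicate 1), Ostn (9.42, and 10.12 without control replicate 1) and Ptprt (9.08, and 12.64 without control replicate 2). All 4 kept their calls.

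Several of the 15 largest falls were in genes of muscle and of lipid handling. Ces1d, a carboxylesterase that hydrolyses triglyceride, stood at 238, 153 and 144 CPM in control and 1.05, 0.512 and 0.651 CPM in cKO hearts (241-fold lower, adjusted p = 3.37e-07). Ky, a muscle protein needed for muscle growth, went from 18.7, 28 and 28.4 CPM to 0.391, 0.341 and 0.137 CPM. Asb15, a muscle ubiquitin ligase adaptor, fell 32.7-fold and Dhrs7c, an enzyme of the sarcoplasmic reticulum, 26.6-fold. Aqp7, the glycerol channel, stood at 1.63, 1.68 and 1.78 CPM against 40.3, 43 and 33.1 CPM. In each of these 5 genes the groups were far apart, which their choice by size and by lack of overlap had set beforehand.

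The other large falls included Scn4b, the beta 4 subunit of the sodium channel (40.7-fold), Aplnr, the apelin receptor of endothelial cells (30.2-fold), and the ligand Efnb3 (51.8-fold). Pla2g5, a secreted phospholipase, fell 55.8-fold, Slc36a2, a proton-coupled amino acid transporter, 42.5-fold and Cenpf, a kinetochore protein, 109-fold. Without cKO replicate 1 the change of Slc36a2 went from -5.41 to -6.07 on the log2 scale. Myh7b, a slow myosin gene that hosts a microRNA, fell by 70.1-fold, but its exons overlap those of Trpc4ap, and Phkg1, a glycogen phosphorylase kinase subunit, fell 24.5-fold with exons that overlap Sumf2.

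Most regulators of the ATF4 programme were higher. Of 22 transcription factors and regulators tested, 16 were higher and 2 lower (median log2 fold change 1.54, against -0.02 over all genes). Atf4 itself stood at 636, 465 and 682 CPM in cKO and 84.1, 81.6 and 72 CPM in control hearts (log2 fold change 2.91, SE 0.17, adjusted p = 1.59e-06). Atf5, a related factor of the mitochondrial stress response, stood at 376, 394 and 533 CPM against 40.8, 51.6 and 45.5 CPM. Trib3, which binds and restrains ATF4, stood at 171, 124 and 221 CPM against 4.72, 4.81 and 3.93 CPM. All cKO hearts were above all controls for the 3 genes. Chac1, which degrades glutathione, stood at 32.4, 15.3 and 24.4 CPM against 2.05, 4.28 and 5.64 CPM, and Atf3, a factor induced by ATF4, at 22.6, 18.1 and 22.8 CPM against 6.68, 5.53 and 7.35 CPM. Jdp2, which dimerises with Jun proteins, differed little, with a log2 fold change of 0.45 (SE 0.17, adjusted p = 0.0374). Ppp1r15a, which directs the phosphatase that reverses eIF2 phosphorylation, rose 8.3-fold. Sesn2 and Ddit4, which hold back mTORC1, rose 15.5-fold and 3.63-fold, and Eif4ebp1, the binding protein that blocks cap-dependent translation, rose 5.79-fold.

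Enzymes of serine, one-carbon, proline and asparagine synthesis followed, with 16 of 23 higher and 3 lower (median 0.98), and 1 lower when replicate 1 or 2 of either group was left out. Mthfd2, the mitochondrial folate enzyme of embryonic and dividing cells, stood at 329, 293 and 356 CPM against 2.18, 2.36 and 2.49 CPM (log2 fold change 7.12, SE 0.16, adjusted p = 3.97e-08). Mthfd1l, which acts after it in mitochondria, rose 18.2-fold, and Aldh18a1, the first enzyme of proline synthesis, rose from 9.98 ± 0.592 to 111 ± 3.56 CPM (SD, n = 3 each). Pycr1, which completes proline synthesis in mitochondria, stood at 39.5, 31.7 and 37.5 CPM against 1.11, 1.54 and 1.11 CPM. Glul, glutamine synthetase, rose only 1.84-fold.

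Transporters of amino acids across the plasma membrane were divided, with 14 of 26 higher and 7 lower (median 0.51). Slc7a5, the exchanger for large neutral amino acids, stood at 258, 261 and 294 CPM against 5.15, 5.34 and 5.22 CPM, and its partner chain Slc3a2 rose 4.96-fold. The glycine transporter Slc6a9 rose 19.3-fold, and the glutamine carriers Slc38a1 and Slc38a2 rose 6.59-fold and 4.26-fold. Slc7a11 had 764 counts in cKO hearts against 2 in controls, a ratio of 375 (95% exact counting interval 104 to 3104). Slc7a7, an exchanger of cationic amino acids, went the other way, at 1.63, 1.31 and 1.71 CPM against 2.77, 2.83 and 4.08 CPM (log2 fold change -1.06). Its promoter stretch is the one of the printed set that belongs to a gene called lower.

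**Figure D2:**
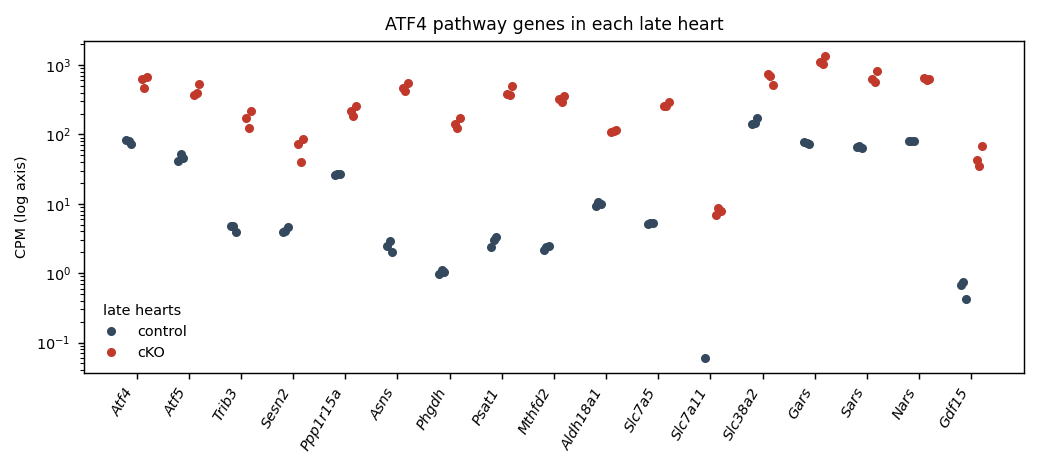
Level in CPM on a logarithmic axis of genes of the ATF4 programme and of the secreted factor Gdf15 in each of the 3 late control and 3 late cKO hearts (points). The genes were picked and are not whole lists: 2 regulators, 3 enzymes and 7 amino acid transporters of the lists were called lower. For every gene drawn the cKO points lie above the control points, and of all genes tested 69.8% did not overlap between the groups. Control hearts with no count of Slc7a11 cannot be drawn on this axis.

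The tRNA synthetases, which load amino acids onto tRNAs, were counted separately for the cytosol and for mitochondria. Of 20 cytosolic enzymes, 19 were higher and none lower (median 2.05). Gars stood at 1119, 1026 and 1359 CPM against 78.2, 75.3 and 73.4 CPM, Sars at 622, 562 and 814 against 65.7, 69 and 62.8, and Nars at 644, 602 and 623 against 80.2, 79.4 and 79.8. Each cKO heart was far above each control for these enzymes of glycine, serine and asparagine. Gars makes the enzyme of both compartments. Of 17 enzymes that serve only mitochondria, 2 were higher and 5 lower (median -0.11), and without cKO replicate 3, 2 were higher and 9 lower. Upper quartile scaling gave 0 higher and 8 lower, and 0 were higher without control replicate 3. Cars2, which charges cysteine tRNA, fell by 3.19-fold, and Hars2 by 2.15-fold. The difference between these lists was not tested.

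Genes that act on mitochondrial mRNAs moved in both directions. Of 17 mitochondrial translation factors, 2 were higher and 8 lower (median -0.27), and 13 were lower under upper quartile scaling. Tufm, the mitochondrial elongation factor Tu, stood at 48.3, 44.8 and 58.3 CPM against 176, 155 and 147 CPM (log2 fold change -1.66, SE 0.14, adjusted p = 1.06e-05). Taco1, an activator of mt-Co1 translation, fell 1.85-fold and the initiation factor Mtif2 1.7-fold, while the tRNA thiolation enzyme Trmu rose 1.73-fold. Among 76 mitochondrial ribosomal proteins, 17 were higher and 18 lower (median -0.06), a smaller share than among all genes. These counts depended on single hearts and on scaling. Without cKO replicate 3, 16 were higher and 37 lower (median -0.24), and under upper quartile scaling 8 and 30 (median -0.23). Only 9 and 7 were higher without control replicates 2 and 3, and the median turned to 0.03, 0.05 and 0.04 without cKO replicate 1, cKO replicate 2 and control replicate 1. Mrpl42 fell 2.68-fold and Mrpl18 2.72-fold, while Mrps10 rose 2.58-fold.

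In the cytosol, 28 of 39 translation factors were higher and 3 lower (median 0.78). Eef1a1, the general elongation factor, stood at 2927, 2922 and 3367 CPM against 736, 825 and 768 CPM, with no overlap. Eif4a1, the helicase of cap-dependent initiation, rose 3.86-fold, and Eif2s2, the beta subunit of eIF2, 4.36-fold. Of 78 ribosomal proteins, 18 were higher and 2 lower (median 0.35). Without cKO replicate 3 the calls were 16 higher and 12 lower (median 0.02), and 30 were higher without cKO replicate 1 and 11 without control replicate 3. Rpl3 and Rpl3l, the general and the striated muscle form of one subunit, went opposite ways. Rpl3l stood at 7.92, 7.53 and 10.4 CPM against 317, 259 and 236 CPM and Rpl3 at 369.8, 359 and 605 CPM against 149.9, 147 and 138 CPM.

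Chaperones and proteases of mitochondria were mostly higher, with 13 of 22 up and only Oma1, a stress protease of the inner membrane, down (by 2.93-fold; median of the list 0.61), while 3 were lower without cKO replicate 3. Lonp1, the matrix protease, stood at 972, 838 and 1086 CPM against 174, 168 and 165 CPM. Hspa9 and Hspd1, the matrix HSP70 and HSP60, rose 2.82-fold and 2.4-fold, and Afg3l2, a protease of the inner membrane, rose 2.33-fold. Of 23 chaperones and sensors of the endoplasmic reticulum, 13 were higher and 3 lower (median 0.38), the latter 6 without cKO replicate 3 and 5 under upper quartile scaling. The oxidase gene Ero1l rose 5.05-fold and the sensor kinase Ern1 2.66-fold, while Pdia4 fell 2.43-fold. Cytosolic heat shock proteins were split, 9 up and 5 down of 24, with a median of 0.14 that turned to -0.03 under upper quartile scaling. The inducible HSP90 gene Hsp90aa1 rose 4.52-fold and Hspb1 3.92-fold, while Cryab, the lens and muscle chaperone, stood at 1541, 1365 and 2011 CPM against 1813, 1657 and 1454 CPM (adjusted p = 0.992). Of 26 import genes, 8 were higher and 5 lower (median 0.12, which turned to -0.05 under upper quartile scaling and to -0.07 without cKO replicate 3, with 8 lower in either case). The outer membrane receptor Tomm70a rose 2.18-fold and Timm21, of the inner membrane channel, fell 4.03-fold.

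Genes of protein breakdown and redox defence were higher across most of their members. Of 33 proteasome subunits, 31 were higher and none lower (median 0.85, range 0.14 to 2.37). Psmd8 stood at 474, 446 and 633 CPM against 113, 102 and 84.8 CPM, and Psmd13 rose 2.8-fold. Of 32 lysosome and autophagy genes, 22 were higher and 4 lower (median 0.76), the latter 7 under upper quartile scaling. Atp6v1h, a subunit of the proton pump, stood at 254, 253 and 295 CPM against 24.6, 25.1 and 23.9 CPM, and the cargo adaptor Sqstm1 at 1769, 1533 and 1825 against 440.3, 439.9 and 421. The cathepsin Ctsl rose 7.3-fold and Ctsd 2.44-fold.

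Of 27 oxidative stress and NRF2 genes, 16 were higher and 3 lower (median 0.83), the latter 5 without cKO replicate 3. Gclm and Gclc, the subunits of the enzyme that starts glutathione synthesis, rose 4.03-fold and 3.04-fold. Hmox1, which degrades haem, stood at 71.1, 70.3 and 89.7 CPM against 12.3, 13.2 and 10.0 CPM, and Txnrd1, a thioredoxin reductase, rose 2.72-fold. For both the lowest cKO heart was above the highest control.

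Energy metabolism fell at many steps. Of 25 genes of fatty acid uptake and oxidation, 3 were higher and 14 lower (median -0.53). The number higher was 5 without cKO replicate 3, and 1 under upper quartile scaling or without control replicate 2 or 3. Acaa2, the last enzyme of the cycle, stood at 235, 269 and 419.8 CPM against 1127, 907 and 818 CPM, and Cpt2, which reforms acyl-CoA inside mitochondria, at 87.3, 72.2 and 88.4 against 318, 259 and 248. The fatty acid transporter Slc27a1 fell 4.03-fold and the isomerase Eci1 2.82-fold. Hadha and Cd36 did not pass the test (log2 fold changes -0.21 and 0.26). The list median was -0.33 both without cKO replicate 1 and without cKO replicate 2.

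Of 29 genes of the tricarboxylic acid cycle and pyruvate dehydrogenase, 4 were higher and 16 lower (median -0.38). Sdha fell 1.81-fold, Idh3b 2.2-fold and Sucla2 2.29-fold, while citrate synthase (Cs) and Ogdh did not pass (log2 fold changes 0.13 and 0.01). The kinases that switch off pyruvate dehydrogenase split: Pdk4 and Pdk3 rose 4.14-fold and 3.03-fold and Pdk2 fell 2.15-fold. Of 6 genes of ketone body use and synthesis, 1 was higher and 3 lower, or 5 lower under upper quartile scaling, among them Oxct1, which activates ketone bodies (2.81-fold). Of 23 genes of glycogen and branched-chain amino acid breakdown, 5 were higher and 12 lower (median -0.56). Ivd, of leucine breakdown, fell 3.18-fold and Ppm1k, the phosphatase that activates branched-chain ketoacid dehydrogenase, 8.43-fold, while the aminotransferase Bcat1 rose 18.7-fold. Glycogen genes differed, since Gyg, the primer of glycogen, stood at 1231, 1194 and 1467 CPM against 162, 141 and 146 CPM and Gys1 rose 4.15-fold while the phosphorylase Pygm fell 1.59-fold.

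Of 37 nuclear genes of complex I, none was higher and 28 were lower (median -0.69). Without cKO replicate 3, 35 were lower (median -0.98), whereas 18, 17 and 16 were called without cKO replicate 1, cKO replicate 2 and control replicate 1. Ndufs1, the largest subunit, fell 2.16-fold, Ndufb5 2.31-fold and Ndufv3 2.13-fold. Of 39 genes of complexes III, IV and V, 2 were higher and 24 lower (median -0.53), with 35 lower without cKO replicate 3 (median -0.82). The number called in either direction was 16, 15 and 15 without cKO replicate 1, cKO replicate 2 and control replicate 1. The 2 that rose, Cox6a1 and Cox8a, are the general forms of subunits that have a muscle form. Cox7a1, a muscle form, stood at 21.2, 29.1 and 42.3 CPM against 830.5, 649.8 and 536 CPM. The share of counts from mitochondrial DNA was 14.4%, 16.0% and 11.2% in cKO hearts and 20.2%, 19.7% and 22.6% in controls, with no overlap (by exact permutation, p = 0.1, the least that 3 against 3 hearts allow). Of the 7 mitochondrial mRNAs tested, mt-Co1 fell 3.53-fold and mt-Nd4 1.73-fold, and mt-Nd1 and mt-Nd2 stood at log2 fold changes of 0.40 and 0.38 without passing, though both were called higher without cKO replicate 3. The libraries were selected on poly-A.

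Energy transfer and mitochondrial upkeep moved too. Ckmt2, the mitochondrial creatine kinase of muscle, stood at 181, 182 and 168 CPM against 2334, 2029 and 1917 CPM, and Ckm, its cytosolic partner, fell 2.68-fold. Nmrk2, a nicotinamide riboside kinase of muscle, rose from 2.01 ± 0.546 to 51.9 ± 19.7 CPM (SD, n = 3 each). Of 21 regulators of mitochondrial biogenesis, 1 was higher and 9 were lower (median -0.29), among them Perm1, a muscle coactivator (3.09-fold). Ppargc1a, the main coactivator, did not pass (log2 fold change -0.49, adjusted p = 0.135). Of 20 genes of mitochondrial shape, 8 were higher and 5 lower, which became 6 and 8 under upper quartile scaling. The fission gene Mtfp1 fell 6.64-fold and Chchd10, a protein of the intermembrane space, rose 2.12-fold.

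Paired forms of the same enzyme or contractile protein were compared within each heart, since such a ratio does not depend on library scaling. Of 23 listed pairs, with the form of adult heart or striated muscle named first for most, the ratio moved away from the first form in 21. In 20 pairs the ratios of cKO and control hearts did not overlap, and all 20 moved away from the first form. In 10 pairs the first form fell and the second rose. Of all single genes, 69.8% did not overlap, 31.8% were called higher and 33.2% lower. No such share was worked out for ratios of other gene pairs. The pairs were chosen with earlier results of these data known, so their counts support nothing on their own. For enolase, the log2 ratio of Eno3 to Eno1 was 3.95, 3.78 and 3.82 in control hearts and -2.47, -2.17 and -2.50 in cKO hearts, a 75.1-fold shift. For Rpl3l and Rpl3 it was 1.08, 0.82 and 0.77 and -5.54, -5.57 and -5.86. In both pairs every cKO heart was below every control, and the cKO hearts lay close together. For phosphofructokinase, Pfkm fell 2.96-fold while Pfkp rose 5.49-fold. For phosphoglycerate mutase, Pgam2 fell 2.4-fold while Pgam1 rose 4.79-fold. Glucose transporters changed likewise, with the insulin-responsive Slc2a4 down 1.98-fold and Slc2a1 up 2.9-fold. Ckm and Ckb fell by the same size (2.68-fold and 2.72-fold), and the ratios of Pdk4 to Pdk3 and of Pln to Sln overlapped between groups and moved toward the first form. Within these pairs, the calls of Slc25a4, Slc16a1, Nmrk1 and Pprc1 were each lost without 1 or more hearts. The Nmrk1 and Nmrk2 pair runs the other way by tissue, since Nmrk2 is the striated muscle form.

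**Figure D3:**
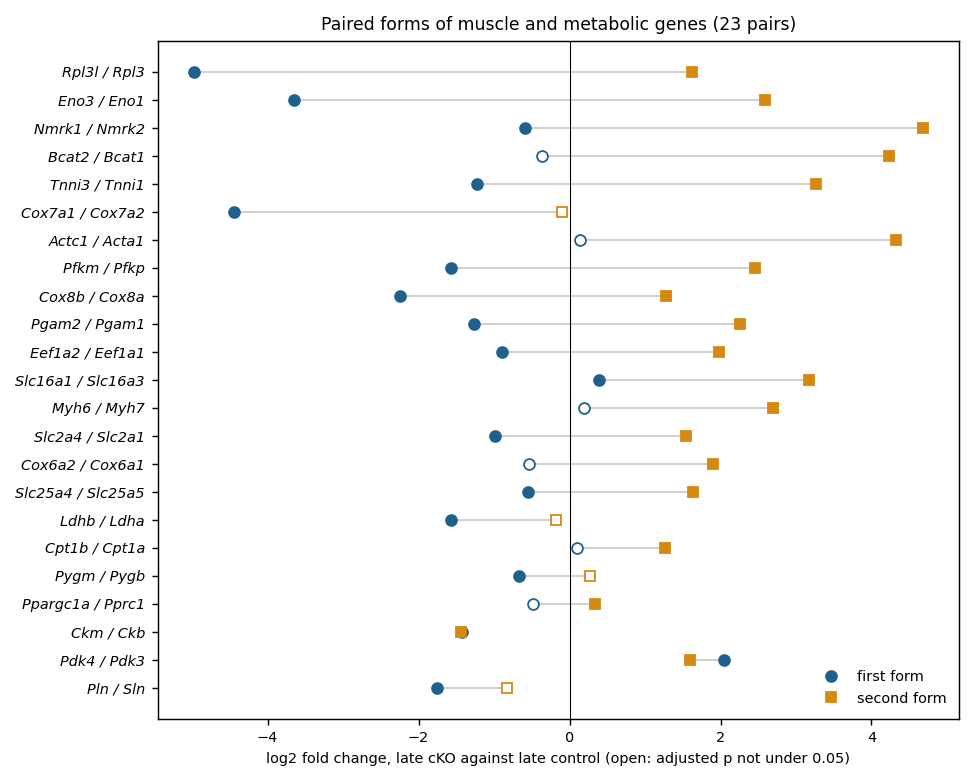
Log2 fold change, late cKO against late control, of the first (circle) and second (square) form in 23 pairs, ordered by the change of their ratio; filled points have an edgeR adjusted p under 0.05 and open points do not. In the upper rows the square lies well to the right of the circle, Ckm and Ckb coincide, and Pdk4 lies to the right of Pdk3; Pln and Sln come last because the order follows the mean ratio within hearts, where Sln is uneven.

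Glycolysis as a whole was mixed, with 14 of 26 genes higher and 10 lower (median 0.42), and 11 against 11 under upper quartile scaling. Hk1, the hexokinase of the fetal heart, stood at 989.9, 1102 and 1063 CPM against 197, 191 and 208 CPM, and Gapdh and Aldoa rose 1.81-fold and 1.66-fold. Ldhd, which uses D-lactate, fell 6.57-fold.

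Genes of the contractile apparatus moved in both directions. Of 40 genes of the sarcomere and Z-disc, 17 were higher and 10 lower (median 0.19), but 12 and 12 under upper quartile scaling. Acta1, skeletal actin, stood at 4978, 4005 and 5637 CPM against 159.7, 353 and 217 CPM, while cardiac actin Actc1, at 9608, 11278 and 14162 CPM against 12071, 10094 and 9716 CPM, did not pass. Myh7, the slow myosin of the fetal mouse heart, rose 6.47-fold, and Tnni1, the fetal troponin I, 9.62-fold while Tnni3 fell 2.33-fold. Des, desmin, stood at 9175, 9717 and 12280 CPM against 2166, 2016 and 1838 CPM, and Xirp2 and Fhl1, proteins of strained muscle, rose 6.08-fold and 6.27-fold. Myl3, the ventricular light chain, fell 5.86-fold and Myl2 2.01-fold.

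Calcium cycling genes were lower about as often as all genes, while channel genes were lower more often than the 33.2% of all genes. Of 27 genes of calcium cycling, 5 were higher and 10 lower (median -0.34). Hrc, which binds calcium in the sarcoplasmic reticulum, stood at 59, 68.5 and 69.6 CPM against 1336, 1181 and 1141 CPM. Atp2a2, the calcium pump, fell 2.31-fold and its inhibitor Pln 3.38-fold, while the sodium-calcium exchanger Slc8a1 rose 5.43-fold. Of 28 sodium and potassium channel and pump genes, 5 were higher and 14 lower (median -0.81). Kcnd2 and Kcnip2, which carry the transient outward current, stood at 1.44, 1.31 and 1.1 CPM against 31.4, 21.7 and 25.2 CPM and at 34.2, 24.7 and 31.6 against 244, 229 and 220.1. Both were lower in every cKO heart than in any control. Kcnv2, a silent potassium subunit, fell 63.8-fold.

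At the intercalated disc, 6 genes were higher and 6 lower of 16. Gja1, connexin 43, fell 3.55-fold and Dsc2, a desmosomal cadherin, 3.68-fold, while Ctnna1 and Pkp2 rose 2.83-fold and 3.01-fold. Of 20 adrenergic and cyclic AMP genes, 4 were higher and 10 lower (median -0.44), with 2 higher under upper quartile scaling or without control replicate 2. The receptors Adra1a and Adrb1 fell 11.4-fold and 3.43-fold, and the receptor kinase Grk5 rose 1.96-fold. Cardiac transcription factors were divided, 6 higher and 10 lower of 23. Hopx stood at 37.8, 31.3 and 34.6 CPM against 273, 224 and 199 CPM and the ventricular factor Irx4 fell 4.6-fold, while Srf and Tead1 rose 2.05-fold and 2.2-fold. Of 19 clock genes, 7 were higher and 9 lower. Dbp stood at 11.4, 8.27 and 10.5 CPM against 215, 205 and 178 CPM and Arntl, which peaks opposite to it, at 15.1, 15.6 and 11.8 CPM against 1.53, 2.17 and 1.68 CPM. The time of day of collection is not given in the sources used here.

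Secreted factors divided by gene, with 9 of 22 higher and 12 lower (median -0.64). Gdf15, a stress cytokine, stood at 42.1, 35.5 and 68.1 CPM against 0.684, 0.754 and 0.42 CPM. Fgf21, a stress hormone, stood at 1.47, 0.739 and 1.1 CPM against 0, 0.0314 and 0 CPM, with a single read in the control hearts together. Nppb, the ventricular natriuretic peptide, stood at 600.1, 457 and 624 CPM against 141, 173 and 125 CPM. Nppa, its atrial relative, stood at 2623, 1734 and 2376 CPM against 93.8, 139 and 566 CPM, with control replicate 3 far above the other controls (log2 fold change 3.07, and 4.26 without that heart). Other transcripts of atrial muscle were uneven in the same hearts. Bmp10 was at 0, 0.0943 and 104 CPM in controls and 0.421, 0.483 and 0.754 CPM in cKO hearts, so its sign rests on control replicate 3 (log2 fold change -5.98, and 3.41 without it), and Myl7 was at 15.9, 21.2 and 111 and 78.8, 0.0853 and 0.24 CPM. How much atrium each library held was not tested. Angptl4, a lipase inhibitor, rose 7.91-fold, while Angpt1, which supports vessels, fell 11.5-fold.

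Of 28 genes of TGF-beta and BMP signalling, 3 were higher and 13 lower (median -0.34), but 7 higher and 12 lower without cKO replicate 3 (median -0.25). The ligand Tgfb2 stood at 134, 129 and 142 CPM against 10.0, 13.1 and 11.9 CPM and Tgfb3 rose 2.65-fold, while the endothelial receptor Acvrl1 and the binding protein Ltbp1 fell 2.95-fold and 4.17-fold. Genes that shape and cross-link the matrix were mostly higher, 16 of 28 against 5 lower (median 0.71). Ctgf stood at 776, 690.5 and 907 CPM against 58.6, 82.4 and 72.3 CPM and Lox, which cross-links collagen, at 80.0, 97.9 and 56.4 CPM against 3.88, 3.65 and 3.57 CPM. Eln, elastin, rose 5.74-fold. Of 36 collagens, 10 were higher and 14 lower (median -0.27), with Col15a1 and Col6a3 down 10.3-fold and 7.98-fold and Col4a2 up 1.74-fold. The plasminogen activator Plau fell 7.61-fold and the membrane protease Mmp15 16.4-fold. The whole list of proteases and inhibitors had 8 higher and 7 lower of 22, with a median of 0.15 that turned to -0.02 under upper quartile scaling.

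Most endothelial, smooth muscle and fibroblast markers were lower, while most of those of activated fibroblasts were higher. In whole tissue, fewer cells of a type and less RNA per cell cannot be told apart. Of 14 endothelial markers, 12 were lower and none higher (median -1.23), and their summed level was 2692, 2653 and 2449 CPM in cKO and 3549, 3557 and 3544 CPM in control hearts. Kdr, a VEGF receptor, fell 3.6-fold and Tek, the angiopoietin receptor, 3.37-fold. Of 10 smooth muscle and pericyte markers, 9 were lower and 1 higher, the latter Cspg4 (summed level 827, 769 and 615 CPM against 1426, 1512 and 1504 CPM). The pericyte channel genes Abcc9 and Kcnj8 fell 4.02-fold and 4.21-fold. Of 12 fibroblast markers, 7 were lower and 1, Mfap5, was higher. Lum fell 5.08-fold, Dpt 4.67-fold and Dcn 2.08-fold. Of 9 activated fibroblast markers, 5 were higher and 1, Fap, was lower (log2 fold change -1.52). Their sum was 1357, 1949 and 2262 CPM against 311, 388 and 304 CPM. Postn stood at 207, 385 and 229 CPM against 46.8, 81.6 and 64.5 CPM and Acta2 at 993, 1359.8 and 1881 against 208, 227 and 173. Acta2 thus made up most of the sum, and which cells it came from was not tested. None of these sums overlapped between groups.

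Heart muscle markers as a sum overlapped, at 72652, 67421 and 81035 CPM against 82682, 73699 and 72494 CPM, with 2 of 10 members higher and 3 lower, and no member higher under upper quartile scaling or without control replicate 2 or 3. The median of 0.01 turned to -0.16 under that scaling, to -0.06 with total counts alone, and to -0.06 and -0.03 without cKO replicate 1 and control replicate 2. Myh6, Tnnt2 and Actc1 were all highly expressed in each library, which fits the label of heart tissue. Macrophage markers fell, with 12 of 15 lower and none higher (median -0.83). Folr2 and Timd4, which mark resident macrophages, fell 6.53-fold and 15.5-fold, and Csf1r, their growth factor receptor, 1.78-fold. Of 7 monocyte and neutrophil markers tested, 3 were higher (Lcn2, Chil3 and S100a8) and 3 lower (Ccr2, Csf3r and Itgam). Ccr2, of monocytes, was at 0.361, 0.171 and 0.377 CPM in cKO and 4.92, 3.83 and 3.6 CPM in control hearts. The summed level of monocyte and neutrophil markers was 23.3 times higher, almost all of it Lcn2, which other cells also make. Red blood cell transcripts were all higher, 6 of 6 (median 2.34), with Hbb-bs at 188, 96 and 135 CPM against 34.8, 20.2 and 27.4 CPM. Slc4a1, the anion exchanger of red cells, had 200 counts against 2, a ratio of 98.2 (95% exact counting interval 26.8 to 817). How much blood each library held was not tested. Lymphocyte markers summed to 0.993, 0.796 and 1.03 CPM against 3.81, 4.02 and 4.74 CPM, and those of Schwann cells to 8.43, 6.31 and 5.42 against 16.6, 16.1 and 20.8. The sums of mesothelial and of fat cell markers overlapped between groups.

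**Figure D4:**
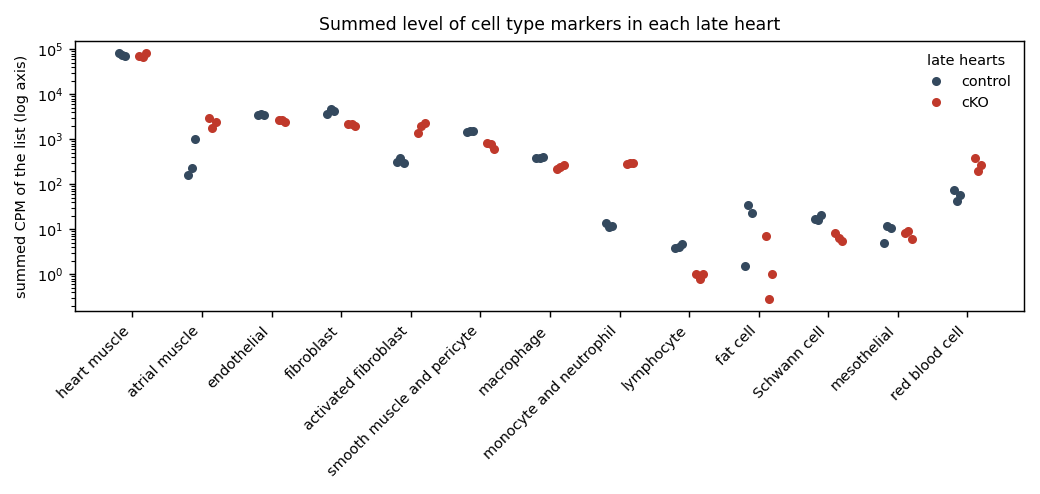
Summed CPM of each cell type marker list (logarithmic axis) in the 3 late control and 3 late cKO hearts (points). Endothelial, smooth muscle, fibroblast and macrophage sums are lower in every cKO heart, activated fibroblast, monocyte and neutrophil, and red blood cell sums are higher, and heart muscle, fat cell and mesothelial sums overlap.

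Immune defence genes fell nearly as a whole. Of 24 interferon response genes, 23 were lower and none higher (median -2.25), and the other gene, Ifi27, did not pass (log2 fold change 0.06). Gbp2, an interferon-induced GTPase, stood at 2.62, 2.84 and 2.84 CPM against 31.1, 30.5 and 29.5 CPM and Rsad2, an antiviral enzyme, at 2.35, 2.73 and 2.98 against 24.7, 25.7 and 19.8. The transcription factors Irf1 and Stat2 fell 4.81-fold and 4.14-fold. Of 18 genes of antigen presentation, 17 were lower and none higher (median -1.90). Class II chains were among the falls: H2-Aa stood at 2.77, 3.87 and 5.38 CPM against 64.4, 66 and 44.8 CPM and the invariant chain Cd74 at 8.64, 7.14 and 13.1 against 139, 137 and 95.8. The class I genes H2-K1 and B2m fell less, 1.91-fold and 2.12-fold. Genes of these class I and class II families are similar in sequence, and how the authors counted reads that fit several of them is not given in the sources used here.

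Chemokines and cytokines fell alongside, 17 of 24 lower and none higher (median -2.28). Cxcl12, which holds cells in tissue, stood at 59.7, 57.9 and 47.6 CPM against 246, 318 and 301 CPM, and Il15 fell 18.5-fold. Csf1, the growth factor of macrophages, fell 4.3-fold. These falls occurred in hearts where macrophage and endothelial marker sums were also lower, by 1.66 and 1.37 times. The median log2 fold changes of those 2 lists were -0.83 and -1.23. The part of those cells in the falls was not tested.

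Genes of growth control and survival moved in both directions. Of 22 genes of the p53 response and apoptosis, 13 were higher and 4 lower (median 0.82). Cdkn1a, which stops the cell cycle, stood at 356, 323 and 384 CPM against 13.2, 14.8 and 14.5 CPM, the death gene Bid rose 10.0-fold and the survival gene Bcl2l1 3.95-fold. Of 25 proliferation genes, 5 were higher and 14 lower (median -1.16), the former 3 under upper quartile or total count scaling and without control replicate 1 or 3. Mki67 was at 1.41, 1.22 and 0.96 CPM against 5.21, 7.98 and 8.67 CPM, while Bub1b rose 4.23-fold and Ccnd2 2.91-fold. Immediate early genes were even, 6 higher and 6 lower of 22. Among them Myc stood at 41.1, 35.9 and 30.9 CPM against 2.83, 4.37 and 3.66 CPM and Maff and Mafk, small Maf partners, rose 5.05-fold and 5.94-fold, while Jun fell 2.97-fold. In sterol and fatty acid synthesis, 11 of 23 genes were higher and 7 lower (median 0.45). Lss, lanosterol synthase, rose 15.7-fold and Acaca, which makes malonyl-CoA, 4.3-fold, but Fdft1, squalene synthase, fell 2.47-fold.

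**Figure D5:**
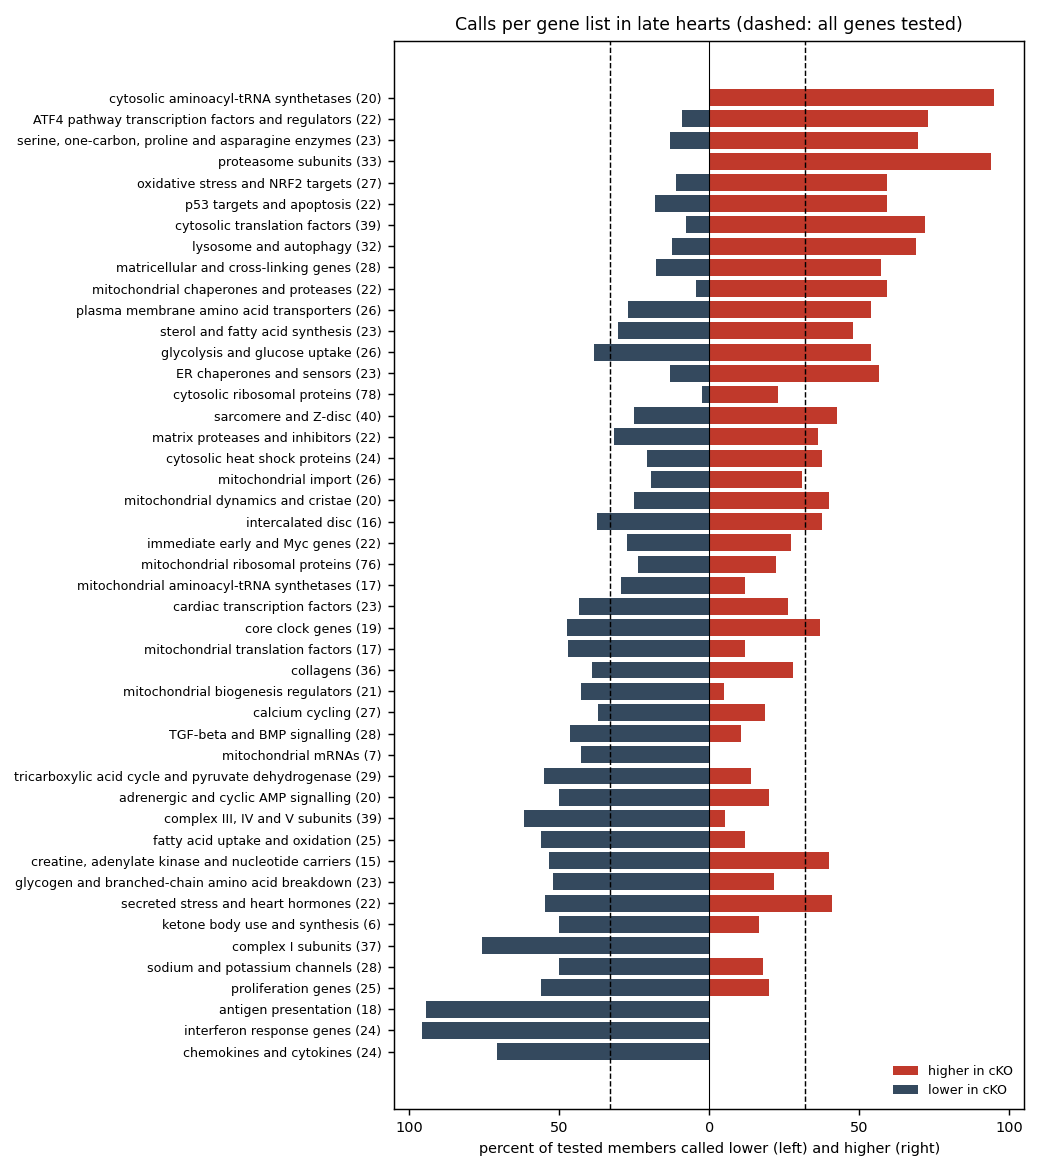
Percent of tested members of each gene list called higher (right) or lower (left) in late cKO hearts, with the number tested in brackets and lists ordered by median log2 fold change; dashed lines mark the shares over all genes, 31.8% higher and 33.2% lower. Cytosolic tRNA synthetases and proteasome subunits reach furthest right, interferon response and antigen presentation genes furthest left.

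The change in failing hearts was compared with that at about 5 weeks by testing the difference of the knockout effects in a fit of all 14 hearts. Of 14555 genes tested, 8903 (61.2%) had a called difference, 4342 positive (29.8%) and 4561 negative (31.3%). Of 9448 genes that were called late and tested here, 8440 had a called difference in the direction of the late change. These genes were chosen by their change in the same late hearts, so the shared direction was largely set by that choice. Early and late hearts come from separate tables of different depth, and only effects within a table were compared. For Asns the log2 effect was 3.08 early and 7.63 late (difference 4.55, SE 0.36, adjusted p = 4.37e-08). For Psat1 it was 2.01 and 7.17 (difference 5.16, adjusted p = 2.77e-09), and for Mthfd2 4.34 and 7.13 (difference 2.79, adjusted p = 6.98e-06). All 3 genes were already called early in this fit and went further. For Fam210a the effect went from -0.23 to -0.93 (difference -0.70, adjusted p = 3.92e-05).

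Of the 20 cytosolic tRNA synthetases, 9 were already called early. They went from a median of 0.35 to 2.07, with 19 of 20 differences positive and called. No member of the next 6 lists was called early, which was also so for most other lists. The share of all genes called early is not given here. Early libraries held 15657298 to 19466469 counts, fewer than the late ones, so the lack of early calls does not set these 6 lists apart. Interferon response genes went from 0.04 to -2.24 (23 of 24 called negative) and antigen presentation genes from 0.09 to -1.88 (17 of 18). Proteasome subunits went from 0.01 to 0.86 (31 of 33 called positive), and red blood cell transcripts from -0.52 to 2.35 (6 of 6). Endothelial markers went from -0.02 to -1.22 (13 of 14 called negative and 1 positive) and complex I genes from -0.11 to -0.68 (21 of 37). Without early cKO replicate 4, the heart whose labels disagree, 8678 genes had a called difference. The differences for Asns, Psat1, Mthfd2 and Fam210a were then 4.37, 5.00, 2.61 and -0.68. The called counts of these lists were the same without it, except that complex I had 20 of 37 and that no endothelial marker was called positive. The medians of the late effect here come from the fit of 14 hearts and differ slightly from those of the 6 hearts above.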

How the data were processed

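Poly-A RNA from 100 ng of total RNA was sequenced as single-end reads of 100 nt after an unstranded TruSeq V2 preparation, per the labels' protocols. Tools named are Trimmomatic 0.36 and STAR 2.6.0c with genome build GRCm38, per the submitters' processing notes, and how reads were counted (tool, annotation, strand) is not given in the sources used here. Raw read counts by gene symbol were deposited by the authors (whole numbers with unequal totals), with a separate table for each time. The 6 late libraries were tested 3 against 3 in edgeR 4.0.16 (R 4.3.3) by its quasi-likelihood F test with TMM scaling. Genes were kept by filterByExpr at a minimum count of 10 and a total of 15, and p-values were adjusted by Benjamini-Hochberg over 14942 genes. The difference between times was a contrast in a fit of all 14 libraries. Early cKO replicate 4 is a knockout by title and a control by its genotype field, and was grouped by title. Its Fam210a level, 148.5 CPM, lay within the other early cKO hearts (136.91 to 152.1 CPM) and below every early control (162.89 to 177.81 CPM).

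CPM used TMM-scaled library sizes, and each SE is the size of the log2 fold change over the root of its F statistic. Of 53735 symbols, 27335 had no count in the late hearts and 11458 had counts that did not pass the filter. The share of mitochondrial counts was tested by exact permutation, two-sided, for which the smallest p for 3 against 3 is 0.1. Ratios for genes with 1 to 3 counts in a group carry a 95% exact counting interval, which covers counting error only. Coordinates are from GENCODE M21, which held 28535 of the symbols, and promoters from RefSeq (GRCm38.p6). The procedure was tested on simulated counts.

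The members, the 59 gene lists and the pairs were chosen with earlier results of these data known, so no set test was run on any list. The sums of the 13 marker lists were put through the same exact permutation. Its p cannot go below 0.1 with 3 against 3 hearts, and nothing above rests on it. Named genes were the target with its neighbours, 15 rises and 15 falls, the largest among calls with at least 10 CPM on average and no overlap (leaving out predicted, pseudo, Y-linked genes and Xist, with clone-named genes counted as predicted), in each list the 6 smallest p and the 3 highest levels, all pairs, and the 5 largest time differences in each direction. Atf3, Chac1, Pycr1, Fgf21, Jdp2, Slc7a7, Vldlr and any other matched gene that these rules do not name were added for their promoter matches. A few genes that were the only members of a list called one way were added after their values were seen. Some genes and 1 pair that these rules name are not reported here. Alternatives were other scalings, filters, DESeq2 1.42.0, limma 3.58.1 voom with sample weights, a replicate block and leaving out each heart.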

Additional observations from a re-analysis of the deposited data

Results flagged for a closer look

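The knockout effect was compared between times: 8903 genes had a called difference between the late and the early knockout effect (edgeR, adjusted p under 0.05). The 5 largest positive differences among genes with a mean of at least 10 CPM were in Acox2 (6.88 on the log2 scale), Lcn2 (6.86), Avil (6.32), whose exons overlap Tsfm, Cdsn (5.78) and Slc7a3 (5.77). For Lcn2 the effect was 0.28 early and 7.14 late. The 5 largest negative ones were in Bmp10 (-16.91), Ces1d (-7.49), the integrin Itgb6 (-6.99), Esr1 (-6.71) and Ky (-6.27). For Ces1d the effect was -0.41 early and -7.90 late.

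The size for Bmp10 comes from single hearts at both times. Early cKO replicate 2 held 166.5 CPM and stood far above the other early cKO hearts. Early control replicate 4 was marked too, but only because it held 0.0597 CPM, a level at the floor, where the other early controls held 0. Myh6 stood apart in early control replicate 3, at 29711 CPM, by a small margin in absolute terms. With 4 samples in a group, this criterion marks about 1 in 20 groups by chance.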

How the results depend on the processing

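The count of genes called in late hearts stayed within 1.5 times of 9714 under every alternative run, from 8225 with a minimum count of 50 to 11007 by limma voom with sample weights. Leaving out 1 heart gave from 8539 (4158 higher and 4381 lower, without control replicate 2) to 10718 (5256 and 5462, without cKO replicate 3). Upper quartile scaling gave 3848 higher and 5825 lower, and DESeq2 gave 4910 and 4876. DESeq2 shared 9547 calls in the same direction with edgeR. Of 425 called genes chosen by the naming rule, 396 kept their call under every alternative that gave a value and 29 lost it under at least 1. The count of genes with a called difference between times, 8903, ranged from 7574 with a minimum count of 50 to 9908 by voom over the alternatives run. Bmp10 reversed, to 0.29 (adjusted p = 0.907) by voom and to 3.41 (adjusted p = 0.00606) without control replicate 3, the only control with more than 1 CPM of it, and leaving out 1 heart gave -6.55 to 3.41. With 3 hearts a group, changes smaller than the spread among cKO hearts could not be resolved, and depth limits only genes near the filter.

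Samples that share a replicate number did not deviate together (correlations -0.27, -0.06 and -0.41), so the numbers were not used as pairs. With the replicate number as a block, 4008 genes were higher and 4366 lower, and 8365 calls were shared.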
